A study of Mus musculus with 4 samples.

Results

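The Eomes-positive newborn excitatory neurons of the early postnatal mouse prefrontal cortex numbered 277 of 11545 cells at postnatal day 1 (P1) and 15 of 19014 cells at P4. Together they made up 292 of the 59918 cells of the 4 ages that passed the limits on cell quality, which asked for 1000 or more unique molecular identifiers (UMIs, each standing for 1 captured RNA molecule), 1000 or more detected genes and no more than 15% of UMIs from mitochondrial genes. A cell was taken as a member when it held at least 2 Eomes UMIs and at least 1 UMI of Neurod2 or Neurod6, the transcription factors of postmitotic excitatory neurons. It also had to hold fewer than 1 UMI per 10000 of Gad1 and Gad2, which make GABA, and fewer than 1 per 10000 of Mki67 and Top2a, which mark dividing cells. The levels of these 7 genes were therefore set by the choice of cells and are given below only as description.

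Eomes, also called Tbr2, is a T-box transcription factor that is switched on as radial glia give rise to intermediate progenitors, the cells that divide in the subventricular zone and produce most excitatory neurons of the cortex. Its RNA outlasts the last division, so that young neurons still carry it while they are multipolar and set out towards the cortical plate, and it then fades. Unc5d, a netrin and FLRT receptor, Sema3c, a secreted semaphorin, and Rnd2, an atypical small GTPase needed for radial migration, are known for their expression in such migrating neurons.

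The study profiled dissociated prefrontal cortex of C57BL/6 mice at P1, P4, P10 and in adults, with 1 library per age. Cells were captured in microwells with barcoded beads (BD Rhapsody, whole transcriptome) and no treatment or genetic change was applied. Each library pooled 2 mice, reported as female, and no label ties a cell to an animal, so an age was 1 sample and no difference could be tested. Every interval below is a 95% interval for counting error only, exact Poisson for a level, exact binomial for a share, and each comparison is between libraries or between cells of 1 library. The P1 library stood apart in its making: it was counted with a later version of the makers' pipeline, from beads of an enhanced version, than the other ages. Against the reported sex, 79 of the 277 P1 members held UMIs of Y-linked genes and no Xist, 136 held Xist and no Y-linked UMI, 57 held both and 5 held neither. All 15 P4 members held Xist alone. The 4 libraries held 200198548 to 340724049 UMIs in all.

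Members of the P1 library had a median of 16970 UMIs and 4745 genes, while the 8434 Eomes-negative cells that passed every other limit had a median of 28228 UMIs. Expression was read as CPM, a gene's UMIs summed over the cells of a group and scaled to a total of 1000000, and compared as the log2 ratio of 2 groups. Genes with a mean CPM of at least 10 over the groups were compared, those at least 2-fold apart were counted as higher or lower in members, and the median log2 ratio over all genes compared is given as the background.

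Wells can pick up free RNA, so the share of cells with Eomes was set beside that in a cell type that should lack it. At P1 members were 3.16% (2.80 to 3.54) of the 8777 cells that passed the other limits, and 4 of 672 Gad cells, which held at least 10 UMIs of Gad1 and Gad2 per 10000, carried 2 or more Eomes UMIs (0.595%, 0.162 to 1.52). With every cell thinned to 5000 UMIs the P1 shares were 2.10% and 0.299%. At P4 the share of members was 0.113% (0.0632 to 0.186), and 1 of 1174 Gad cells carried as many Eomes UMIs (0.0852%, 0.00216 to 0.474). After thinning the P4 shares were 0.0409% and 0.101%. Thinning dropped cells under 5000 UMIs, which took out the P4 members with 3068 to 4708 UMIs. The P4 member with the most Eomes, 18 UMIs, was among them. The P4 share of Gad cells rested on 1 cell, and the intervals of both shares overlapped. By share alone P4 members could not be told apart from this background, and they are described cell by cell further on. Gad cells had median depths of 16327 UMIs at P1 and 8422 at P4, and P4 members of 5218. In the adult library 0 of 14087 cells met the rule, where a limit of 3 cells allows a share of up to 0.0213% and the exact binomial interval one of up to 0.0262%.

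At P1 the members held a median of 10 Eomes UMIs (quartiles 4 and 20, highest 121), with 29 cells just inside the limit at 2 UMIs and 66 cells just outside it at 1 UMI. Sema3c was at 1157 CPM in the former and 405 in the latter, and at 80.0 in cells with no Eomes UMI. Unc5d was at 844, 273 and 96.4 CPM in the same order.

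The marker genes of migrating newborn neurons were all higher in the P1 members than in the Eomes-negative cells. Sema3c lay at 862 (838 to 888) CPM in members against 80.0, a log2 ratio of 3.43 (3.38 to 3.48). Unc5d lay at 950.1 (924 to 977) against 96.4 CPM, a log2 ratio of 3.30 (3.26 to 3.35). Rnd2 lay at 456 (438 to 474) against 41.6 CPM, a log2 ratio of 3.45 (3.39 to 3.52). The intervals of the groups did not overlap for any of the 3 markers. The share of all compared genes without overlap was not counted, so nothing is read from this. In P1 cells of 30000 UMIs or more their log2 ratios were lower, at 2.78 for Sema3c, 2.57 for Unc5d and 2.66 for Rnd2, and the highest values over the alternatives tried were 3.76, 3.62 and 3.73, without the cells marked by a doublet caller described below. All 3 were present with at least 1 UMI in 244 of 277 members (88.1%, 83.7 to 91.7), against 1153 of 8434 Eomes-negative cells (13.7%), and 11 members held none of them. These markers were no part of the rule, but they were named for these cells with the data in view. The markers stood at chr5:17574281-17730268 on the plus strand (Sema3c), chr8:28646717-29219636, minus strand (Unc5d) and chr11:101464999-101471853, plus strand (Rnd2) of GRCm38, and Eomes at chr9:118478212-118486132, plus strand. Svet1, Gm9911 and Gm45652 lie inside Unc5d, Vat1 overlaps Rnd2 and Gm33460 overlaps Eomes on the opposite strand, and since the use of strand in the counting is not given in the sources used here, reads of these pairs could not be told apart.

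The promoter of Eomes is shown because this gene chose the cells, and that of Sema3c because it is a marker named for them. They run from 250 bases before to 50 after a RefSeq start on the plus strand of GRCm38.p6, with any match to the E-boxes CAGATG or CAGCTG, the letters read by neurogenic basic helix-loop-helix factors, or to the T-box element AGGTGTGA, on either strand, in capitals. The Eomes window is chr9:118477939-118478238, the Sema3c window chr5:17574566-17574865, and that of the second listed start of Slc17a6, an early glutamate transporter gene described below, is chr7:51624387-51624686. The window of the first listed start of Slc17a6, chr7:51621580-51621879, held none of the motifs. The second is shown because it held a match, so this choice followed the outcome. Among windows not shown, those of Neurog2 and Tfap2d held no match, and those of 2600014E21Rik held one in part.
Eomes: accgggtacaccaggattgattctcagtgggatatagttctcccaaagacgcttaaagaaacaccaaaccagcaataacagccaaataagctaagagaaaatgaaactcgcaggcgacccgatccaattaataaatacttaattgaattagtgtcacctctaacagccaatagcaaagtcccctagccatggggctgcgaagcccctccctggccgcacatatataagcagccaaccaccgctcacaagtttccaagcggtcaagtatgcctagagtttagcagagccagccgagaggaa
Sema3c: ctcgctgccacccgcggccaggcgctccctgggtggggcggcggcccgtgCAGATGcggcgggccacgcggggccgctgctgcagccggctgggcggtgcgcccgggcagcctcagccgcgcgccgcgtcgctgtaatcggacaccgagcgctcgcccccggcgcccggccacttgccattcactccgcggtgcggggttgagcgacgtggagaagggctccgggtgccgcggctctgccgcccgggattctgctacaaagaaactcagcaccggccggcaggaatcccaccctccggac
Slc17a6: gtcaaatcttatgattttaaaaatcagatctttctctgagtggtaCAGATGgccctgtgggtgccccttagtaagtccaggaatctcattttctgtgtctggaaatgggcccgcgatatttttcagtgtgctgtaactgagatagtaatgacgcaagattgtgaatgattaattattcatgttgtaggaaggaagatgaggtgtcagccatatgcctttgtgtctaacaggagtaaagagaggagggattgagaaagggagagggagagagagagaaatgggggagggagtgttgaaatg
The Sema3c window held CAGATG 200 bases before the start and the Slc17a6 window 205 bases before it, and the Eomes window held none of the 3 motifs. None of the motifs shares a site with another in these windows. CAGATG was in 17.2% of the 32851 promoters of the table, in 10.9% of those of genes compared at P1, in 12.8% of those at least 2-fold higher in members and in 13.4% of those at least 2-fold lower. CAGCTG was in 16.3%, 14.6%, 16.6% and 19.97% of the same sets, and AGGTGTGA in 1.28%, 0.615%, 0.147% and 0.571%. Genes of the rule were left out of the sets of compared, higher and lower genes. Promoters were matched for 482 of the 614 higher and 500 of the 697 lower genes listed, and the starts of Unc5d and Rnd2 are named only.

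**Figure D1:**
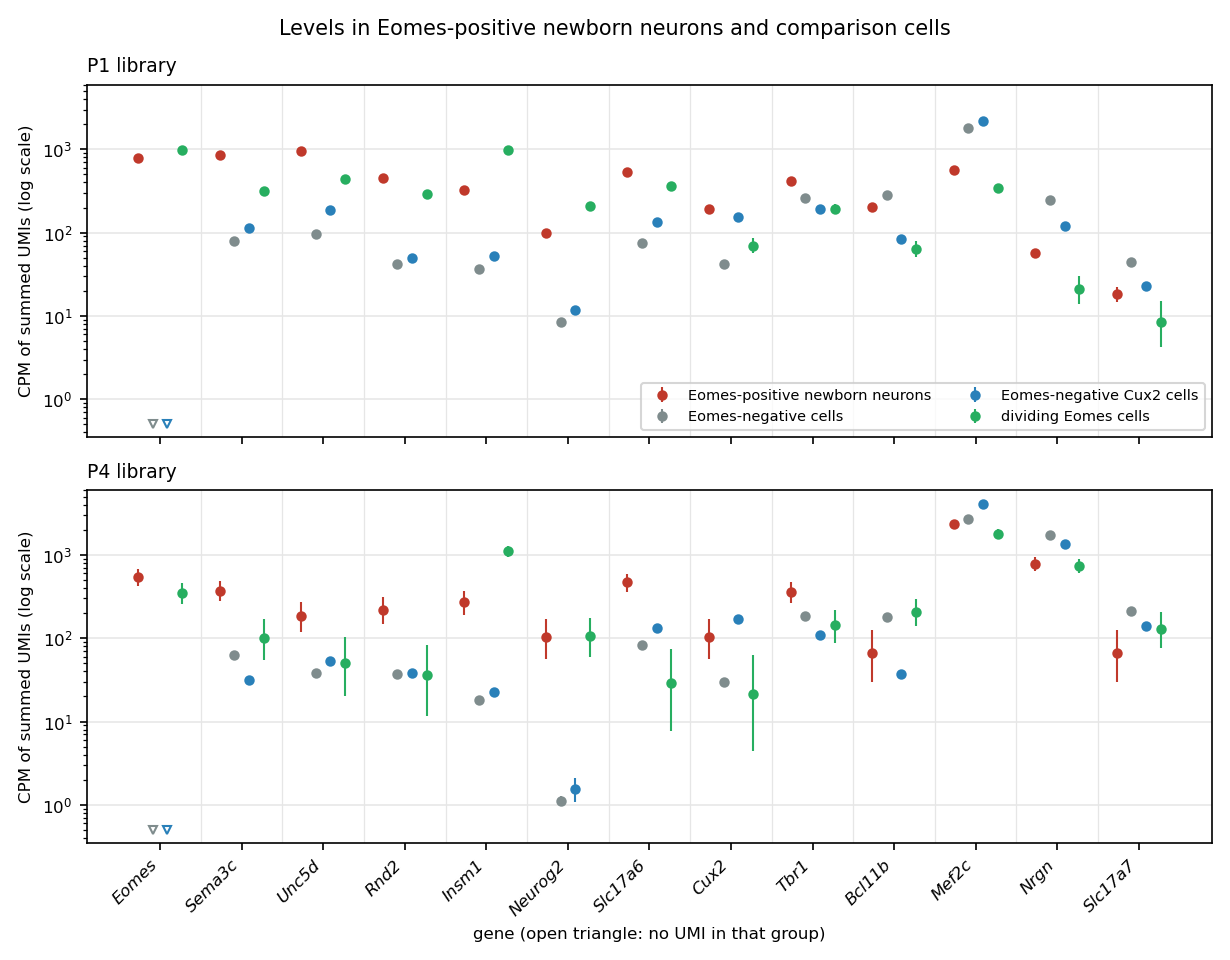
Levels of 13 genes, in CPM on a log axis, in the members, the Eomes-negative cells, the Eomes-negative cells with 2 or more Cux2 UMIs and the dividing Eomes cells, at P1 in the upper panel and P4 in the lower. Bars are 95% Poisson intervals and an open triangle marks a gene with no UMI. At P1 the members lie above both Eomes-negative groups for Sema3c, Unc5d and Rnd2 and below them for Mef2c and Nrgn.

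Over all genes, 615 of 9585 compared (6.42%) were at least 2-fold higher in P1 members than in Eomes-negative cells and 697 (7.27%) at least 2-fold lower, with a median log2 ratio of 0.04. The rule used Eomes and the neuronal genes of these same cells, so nothing is read from these counts. Of the called genes, 294 were higher and 193 lower in both libraries, with no share over all genes taken. Among those, Tfap2d, an AP-2 transcription factor gene, was at 38.5 against 0.629 CPM at P1, a log2 ratio of 5.94 (5.63 to 6.25), and at P4 had a log2 ratio of 9.08 (7.24 to 10.66) from 5 UMIs in members, with no UMI left in members after thinning. The uncharacterised transcript 2600014E21Rik followed at 107 against 2.14 CPM, log2 ratio 5.64. Ezr, encoding ezrin, which links the membrane to actin, was at 382 against 18.6 CPM, log2 ratio 4.36, and at P4 4.25. All 3 were past 2-fold in either library, as the choice of these genes required. Celsr1, a planar polarity cadherin, had log2 ratios of 4.12 at P1 and 4.30 at P4, Eya1, a transcriptional coactivator, 4.22 and 4.48, and Ltbp3, which binds latent TGF-beta, 4.24 and 4.87. Stac2, Zfp536, Rhbdl3 and Gm45768 completed the 10 leading genes, with P1 log2 ratios of 4.07 to 4.52. Over alternatives the lowest P1 log2 ratios were 3.37 for Ezr, 3.34 for Stac2, 3.27 for Rhbdl3, 3.25 for Zfp536 and 3.25 for Eya1. Those of Ezr, Stac2, Zfp536 and Eya1 came from cells of 30000 UMIs or more. At P4 the lowest was 2.98 for Ezr, with a limit of 1 Eomes UMI, and 2.84 for Rhbdl3. For Tfap2d, Stac2 and Gm45768 an alternative left no UMI in P4 members. The bound then gave no direction, and the log2 ratio was set to 0. The P4 ratios rested on few UMIs in members, 4 each for Celsr1 and Rhbdl3, 3 for Gm45768, 7 each for Stac2 and Zfp536, and 9 for Eya1. No P4 member held a Stac2 UMI after thinning, or a Gm45768 UMI with a limit of 3 Eomes UMIs or without the Reln-high pair described below. At P1 alone, among genes picked after their values were seen, Mfap4, a microfibril protein gene that is also on the neurogenic list, was at 96.5 against 1.09 CPM, log2 ratio 6.46, and Nrn1, encoding the growth-promoting neuritin, at 248 against 11.3 CPM, log2 ratio 4.45. Nrn1 was found in 87.0% of members and 14.6% of Eomes-negative cells.

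The genes that were lowest in members in both libraries included Gda, a guanine deaminase gene, at 13.01 against 63.6 CPM, log2 ratio -2.29 at P1 and -2.65 at P4. Doc2b, a calcium sensor for vesicle release, was at 5.39 against 26.5 CPM, log2 ratio -2.30, and Slc12a5, which encodes the chloride extruder KCC2 of maturing neurons, at 6.69 against 24.3 CPM, log2 ratio -1.86. The others were Stum, Fosl2, Kcnk1, Pcdh1, Ildr2, St3gal1 and Ak5, with P1 log2 ratios from -2.16 to -1.77. In P1 cells of 30000 UMIs or more, Stum, Fosl2, Kcnk1, Pcdh1 and St3gal1 were within 2-fold, at log2 ratios of -0.94 to -0.36, and Doc2b was at -1.15. In P1 cells under 30000 UMIs all 10 lay further below, at log2 ratios from -4.16 for Fosl2 to -2.22 for Ak5. In cells with Y-linked UMIs alone Doc2b was at -5.26, Ak5 at -5.16 and Ildr2 at -4.25, and without marked cells, explained below, Gda was at -4.13. At P4 Gda rested on 5 UMIs in members and the other 9 genes on 1 to 4 UMIs each, so that their P4 ratios are weakly supported.

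**Figure D2:**
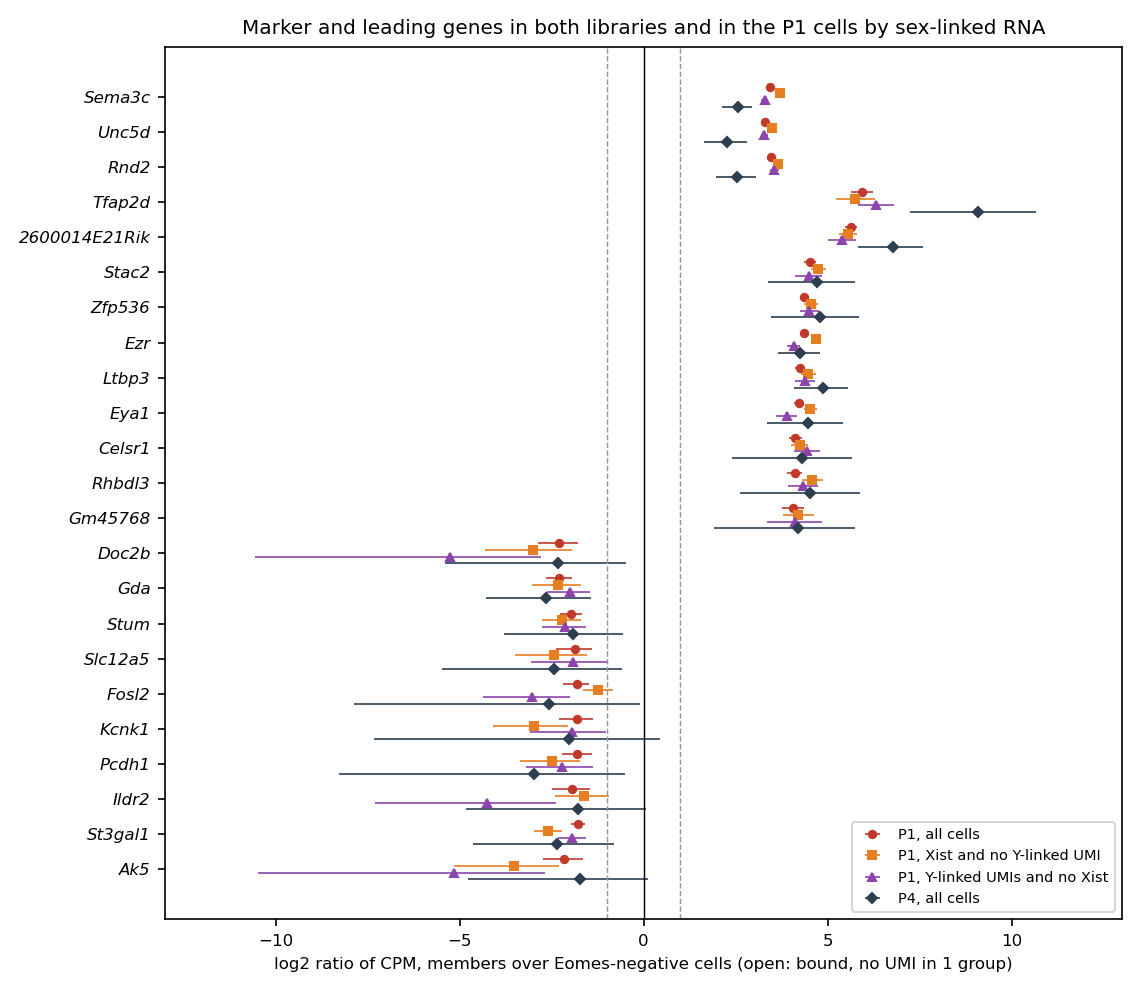
Log2 ratio of members over Eomes-negative cells for the 3 markers, the 10 leading higher and the 10 leading lower genes, with separate symbols for all P1 cells, P1 cells with Xist and no Y-linked UMI, P1 cells with Y-linked UMIs and no Xist, and P4 cells. Bars are 95% counting intervals and dashed lines mark 2-fold. In the P1 cells with Xist alone Sema3c is at 3.70 and in those with Y-linked UMIs alone at 3.29, against 3.43 over all P1 cells.

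Depth differed within the members. There were 41 P1 members (14.8%) with 30000 UMIs or more, which held 33.1% of the members' UMIs, and Scrublet, a doublet caller, marked 31 of these 41. It marked 38 of all 277 members (13.7%, 9.89 to 18.3) and 335 of 8434 Eomes-negative cells (3.97%). Marked cells were kept, and without them 826 genes were at least 2-fold higher and 1051 lower in members than in Eomes-negative cells. Values for cells under 30000 UMIs are given beside the groups where they differed. Below that depth 642 genes were at least 2-fold higher (6.72%) and 973 at least 2-fold lower (10.2%) of 9558, and at or above it 297 (3.1%) and 99 (1.03%) of 9567. In cells with Xist and no Y-linked UMI 779 genes were higher (8.15%) and 1024 lower (10.7%), and in cells with Y-linked UMIs and no Xist 770 (8.04%) and 846 (8.83%).

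Of 13 genes on the neurogenic list 10 could be compared, of which 7 were at least 2-fold higher and 0 lower. Their median log2 ratio was 2.27, against 0.04 over all genes. A gene could pass the limit on mean CPM through its level in members alone, as Neurog2 and Mfap4 did. The list was also chosen with earlier results of these data known, so its count and median are given as description. Over all genes 6.42% were higher and 7.27% lower, the shares to set beside each P1 list count against Eomes-negative cells. In cells under 30000 UMIs these shares were 6.72% and 10.2%. Neurog2, the proneural factor that drives excitatory fate, was at 98.0 against 8.46 CPM, log2 ratio 3.53. Insm1, which promotes the step from radial glia to intermediate progenitors, was at 327 against 36.8 CPM, log2 ratio 3.15. Neurod1, the next factor of that cascade, was at 281 against 76.2 CPM, log2 ratio 1.88, and Rcor2, a corepressor, at 147 against 18.5 CPM, log2 ratio 2.99. The other 3 past 2-fold encode no transcription factor: Elavl4 encodes a neuronal RNA-binding protein, Mfap4 a microfibril protein and Sstr2 a somatostatin receptor. Among 5 compared genes of the cell cycle exit list 4 were higher. They were Cdkn1b, the p27 inhibitor, at 760.4 against 237 CPM, log2 ratio 1.68, the antiproliferative genes Btg1 and Btg2, and Ccnd2, at 313 against 30.0 CPM, log2 ratio 3.38. Ccnd2 encodes cyclin D2 of intermediate progenitors, which promotes passage through G1 and not exit from the cycle.

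Of 18 genes of cell division only 7 reached the mean CPM of 10, and the 4 that were higher were Mcm5, Mcm6 and Mcm7 of the replicative helicase and Hmgb2. The rule had removed cells with Mki67 or Top2a. In cells under 30000 UMIs, of the cell division genes 2 were higher. Of 11 radial glial genes 2 were higher, Pax6 at 79.4 against 5.13 CPM, log2 ratio 3.95, and Sox2 at 44.98 against 12.3 CPM, log2 ratio 1.88, both transcription factors of cortical progenitors, and the list's median log2 ratio was 0.73 (-0.32 in cells under 30000 UMIs). In the Notch pathway 5 of 9 compared genes were higher, namely the ligand Dll3, the receptor Notch1, the glycosyltransferase Mfng, the nuclear effector Rbpj and the inhibitor Numb, and the ligand Jag2 was lower.

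Of 27 receptors and ligands of axon guidance compared, 11 were at least 2-fold higher and 4 lower, and the median log2 ratio was 0.66. Dcc, the netrin receptor, was at 1156 against 237 CPM, log2 ratio 2.29. Sema3a, a secreted semaphorin, was at 159 against 20.4 CPM, log2 ratio 2.95, and Sema5a at 312 against 59.2 CPM, log2 ratio 2.40. Epha3, an ephrin receptor gene, was at 291 against 56.5 CPM, log2 ratio 2.37, Robo2, a Slit receptor gene, at 829.9 against 367 CPM, log2 ratio 1.18, and the Slit2 ligand gene at 52.4 against 11.8 CPM, log2 ratio 2.16. Nrp2, Unc5a and Epha4 were also higher, as were the markers Sema3c and Unc5d. Flrt3, which encodes an FLRT ligand of Unc5 receptors, was at 11.0 against 41.5 CPM, log2 ratio -1.92, and its relative Flrt2 at 138 against 340.2 CPM, log2 ratio -1.31. Sema6a and Plxna1 were lower as well, and no netrin was on this list.

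Of 18 compared genes of neuronal migration 3 were higher and 2 lower, with a median log2 ratio of -0.32, beside 6.42% higher and 7.27% lower over all genes. Beside Rnd2, a marker named for these cells, the higher genes were Rnd3, its relative, and Lrp8, a Reelin receptor, at 760.2 against 239 CPM, log2 ratio 1.67. Vldlr, the other Reelin receptor, was at 46.3 against 109 CPM, log2 ratio -1.24, and Dab1, the adaptor of both, at 273 against 619 CPM, log2 ratio -1.18. Of the genes of the Reelin pathway named here, 1 was thus above and 2 below the Eomes-negative level. Sox11, a SoxC factor of young neurons, was at 4523 against 1763 CPM, log2 ratio 1.36, and Sox4 at 2303 against 1504 CPM, log2 ratio 0.62.

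Of 11 upper-layer genes 6 were at least 2-fold higher and 2 lower, with a median log2 ratio of 1.30. Cux2, a homeodomain factor of upper layers, was at 193 against 41.5 CPM, log2 ratio 2.22, Pou3f2 (Brn2) at 1091 against 301 CPM, log2 ratio 1.86, and Lhx2 at 712 against 142 CPM, log2 ratio 2.33. Mdga1, an adhesion molecule of superficial neurons, was at 192 against 31.3 CPM, log2 ratio 2.62. All 4 lay above the Eomes-negative cells. Mef2c, an activity-linked factor of later neurons, was at 571 against 1792 CPM, log2 ratio -1.65, and Inhba was lower as well. None of 9 deep-layer genes was 2-fold higher and 3 were lower: Fezf2, which specifies subcerebral neurons, at 121 against 269.7 CPM, log2 ratio -1.15, with Ldb2 and Crym. Bcl11b (Ctip2) at 204 against 285 CPM, log2 ratio -0.48, and Tbr1, which follows Eomes in this lineage, at 417 against 262 CPM, log2 ratio 0.67, were within 2-fold.

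Of 29 synaptic genes 1 was higher and 13 lower, with a median log2 ratio of -0.65, and in cells under 30000 UMIs 2 were higher and 14 lower (-0.98). The higher gene was Slc17a6, the vesicular glutamate transporter of young neurons, at 538 against 74.2 CPM, log2 ratio 2.86, while Slc17a7, the transporter of mature cortical neurons, was at 18.2 against 44.8 CPM, log2 ratio -1.30. Nrgn, the calmodulin-binding neurogranin gene, was at 56.7 against 244 CPM, log2 ratio -2.10, Syt4 at 315 against 1153 CPM, log2 ratio -1.87, and Camk2b at 137 against 465 CPM, log2 ratio -1.76. Of 10 genes of axon growth 4 were lower, Gap43, Stmn2, Nrcam and Cntn1, and 8 were lower in cells under 30000 UMIs. Gap43, the growth cone protein gene, was at 788 against 2359 CPM, log2 ratio -1.58, and at a log2 ratio of -2.88 in the shallower cells. The list's median log2 ratio was -0.97, and -1.18 below 30000 UMIs. Of 15 compared ion channel genes 5 were lower and 0 higher, beside 7.27% lower and 6.42% higher over all genes. Of the 9 genes of activity and stress only 1 reached the limit for comparison.

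**Figure D3:**
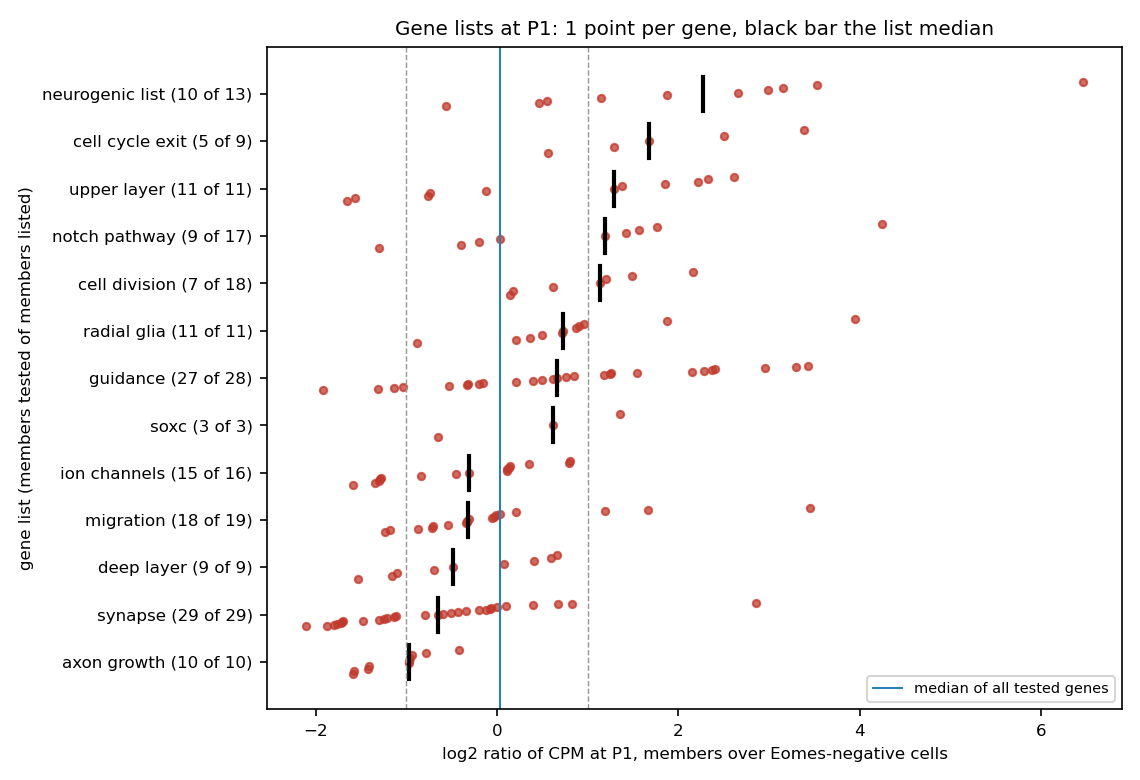
Log2 ratio of P1 members over P1 Eomes-negative cells for each compared gene of 13 lists, 1 point per gene, with a black bar at the list's median, a blue line at the median of all genes compared and dashed lines at 2-fold. The neurogenic list has a median of 2.27 and the genes of axon growth one of -0.97.

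Detection was compared at equal depth by drawing 5000 UMIs at random from every cell. Shallower cells were dropped, 1 of the 277 P1 members and 111 of the Eomes-negative cells. Sema3c was then found in 87.3% of members, 19.6% of Eomes-negative cells and 10.2% of Gad cells, and without thinning in 91.7% and 41.7% of the first 2 groups. Slc17a6 was in 77.5%, 21.9% and 1.64% after thinning (94.6% and 44.0% before). Neurog2 was in 26.4%, 3.36% and 0.299% after thinning (45.1% and 14.6% before). For these 3 genes the share of members was the highest of the 3 groups, whereas Slc17a7 was in 4.71% of members and 14.4% of Eomes-negative cells (15.5% and 45.1% before). The median number of genes per thinned cell was 2513 in members and 2554 in Eomes-negative cells.

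**Figure D4:**
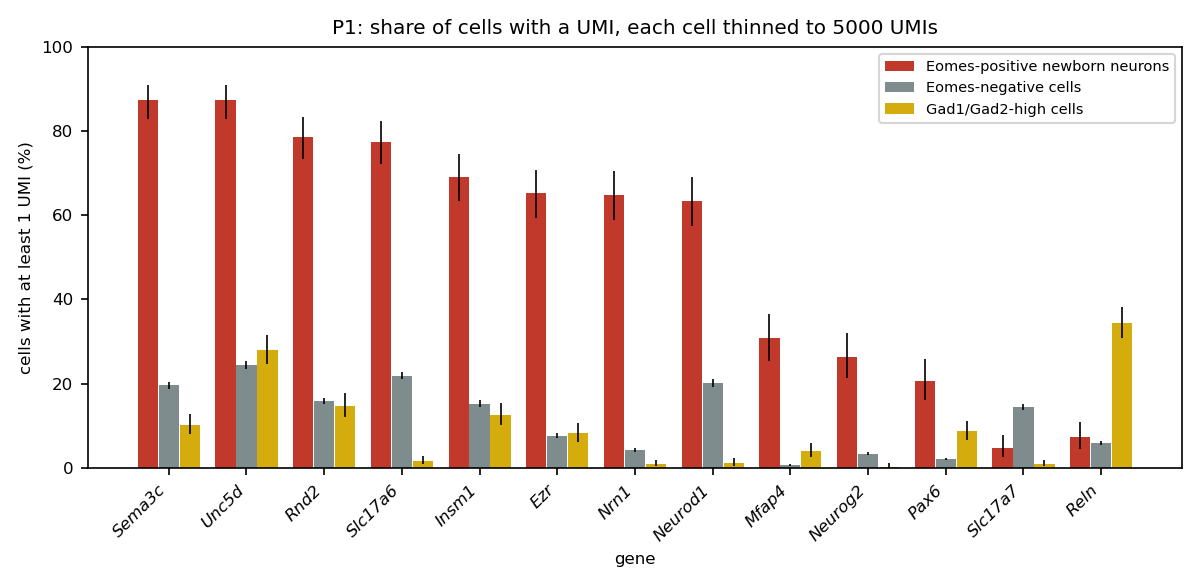
Percent of P1 cells with at least 1 UMI of 13 genes after each cell was thinned to 5000 UMIs, in members, Eomes-negative cells and Gad cells, with bars from 0 and Clopper-Pearson 95% intervals. Unc5d, for example, is found in 87.3% of members, 24.4% of Eomes-negative cells and 28.1% of Gad cells.

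The Eomes-negative cells at P1 included 1851 with 2 or more UMIs of Cux2, taken as upper-layer neurons of the same library. Against them 610 of 9471 genes were at least 2-fold higher in members (6.44%) and 459 lower (4.85%), and with TMM factors, which centre the bulk of genes, 495 were higher and 640 lower. The lower count moved with other choices, to 852 without marked cells, 698 after thinning, 818 in cells with Xist alone, 83 in cells of 30000 UMIs or more and 210 with a limit of 1 Eomes UMI, and the higher count to 374 in cells of 30000 UMIs or more. The median log2 ratio of all genes was 0.05. The markers stayed apart, with log2 ratios of 2.92 (2.87 to 2.97) for Sema3c, 2.35 (2.30 to 2.39) for Unc5d and 3.18 (3.10 to 3.26) for Rnd2. Ccnd2 was at 313 against 14.7 CPM, log2 ratio 4.41, and Tead2, a nuclear effector of Hippo signalling, at 49.8 against 1.66 CPM, log2 ratio 4.91. Of the upper-layer genes Lhx2 and Mdga1 were higher, but Mef2c was at 571 against 2194 CPM, log2 ratio -1.94, and Pou3f1 and Inhba were lower too. Of 9 deep-layer genes 5 were higher, Bcl11b at 204 against 84.7 CPM, log2 ratio 1.27, Foxp2 at a log2 ratio of 2.07 and Tbr1 at 1.10, with Sox5 and Tle4, and 0 were lower. The cells compared here had been picked by an upper-layer gene, and against all Eomes-negative cells none of the 9 was 2-fold higher. The deep-layer genes were not split by depth here. The radial glial list had 8 of 11 genes higher (median log2 ratio 1.35), and the neurogenic list 7 of 9 (2.45). Both lists were chosen with earlier results of these data known, so these values are description. The radial glial median was not split by depth here, but against all Eomes-negative cells it was -0.32 under 30000 UMIs and 1.97 from 30000 UMIs, where most members were marked by the doublet caller. The 5 genes lowest against these cells in both libraries were Fat4, at a P1 log2 ratio of -2.29, Slitrk3, Ntsr1, Kcnj2 and Slc6a11, which rested on 3, 1, 2, 1 and 1 UMIs in P4 members. At P4, 1256 of 9229 genes were higher (13.6%) and 835 lower (9.05%) than in the Cux2 cells. Cux2 itself chose these cells and was at 193 against 155 CPM.

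On the other side stood 47 dividing Eomes cells at P1, which met the Eomes and Gad limits but held at least 1 UMI of Mki67 and Top2a per 10000. Unlike members, they needed no UMI of Neurod2 or Neurod6, so the groups differ by that limit too. Members exceeded them at least 2-fold in 456 of 9911 genes (4.6%) and lay below them in 938 (9.46%), with a median log2 ratio of 0.00. The higher count moved with the choice of cells, to 806 without marked cells, 981 after thinning, 815 under and 993 from 30000 UMIs, and 996 in cells with Xist alone or 1324 in cells with Y-linked UMIs alone. Of 18 cell division genes 17 were lower in members, which the choice of cells used: Hmgb2 was at 62.8 against 2049.6 CPM, log2 ratio -5.03, and Tpx2, a spindle gene, at 3.16 against 731 CPM, log2 ratio -7.85. All 11 radial glial genes were lower, Sox2 at 44.98 against 269 CPM, log2 ratio -2.58, and Pax6 at 79.4 against 208 CPM, log2 ratio -1.39. Insm1 was at 327 against 984 CPM, log2 ratio -1.59, and Neurog2 at 98.0 against 206 CPM, log2 ratio -1.08. These 4 progenitor factors thus all lay below the dividing cells. Of 27 guidance genes 11 were higher in members and 1 lower, and of 29 synaptic genes 11 were higher and 0 lower. Nos1, the neuronal nitric oxide synthase gene, was at 497 (479 to 516) against 49.1 CPM, a log2 ratio of 3.34 (2.98 to 3.73), and at 82.1 CPM in Eomes-negative cells. Calb2, which encodes the calcium-binding calretinin, was at 98.9 against 7.01 CPM, log2 ratio 3.82. At P4 18 of the 19 Calb2 UMIs lay in 1 Reln-high member described below, and the 10 P4 dividing cells held the interneuron-lineage genes Dlx1 at 393 and Dlx2 at 286 CPM. Ntf3, a neurotrophin gene, Inf2, a formin gene, and Cpeb3, a translational regulator gene, completed the 5 genes leading in both libraries, the P4 comparison having 1764 of 9736 genes higher (18.1%) and 1371 lower (14.1%) against 10 dividing cells. Sema3c had a log2 ratio of 1.47, Unc5d of 1.10 and Rnd2 of 0.66.

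Members varied with their Eomes count, the measure that chose them, so the following is description. Neurog2 was at 24.2 CPM at 2 UMIs, 27.02 at 3 to 4, 51.1 at 5 to 19 and 252 at 20 or more. Pax6 was at 22.4 CPM at 2 UMIs, 24.7 at 3 to 4, 51.1 at 5 to 19 and 184 at 20 or more. In dividing Eomes cells these genes were at 206 and 208 CPM. Sox2 did not climb step by step, at 3.73 CPM at 2 UMIs, 34.1 at 3 to 4, 25.7 at 5 to 19 and 102 at 20 or more. Insm1 was at 270.1 CPM at 2 UMIs, 298 at 3 to 4, 284 at 5 to 19 and 444 at 20 or more, and at 984 CPM in dividing cells. Sema3c ran the other way, at 1157 CPM at 2 UMIs, 914 at 3 to 4, 857 at 5 to 19 and 730.2 at 20 or more, with 312 CPM in dividing cells. Cux2 was at 201 CPM at 2 UMIs, 236 at 3 to 4, 223 at 5 to 19 and 111 at 20 or more, lowest where Eomes was highest. Unc5d had no steady course, at 844 CPM at 2 UMIs, 1183 at 3 to 4, 892 at 5 to 19 and 956 at 20 or more. The 4 groups held 29, 43, 135 and 70 cells, with like median depths of 15714 to 18898 UMIs.

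Members with 20 or more Eomes UMIs, set against those with 2 to 4, had 533 of 9560 genes at least 2-fold higher (5.58%) and 456 lower (4.77%), with a median log2 ratio of 0.06. Of 11 radial glial genes 7 were higher (median log2 ratio 1.45), and of 12 genes of the neurogenic list 5 (0.83). Of 5 compared astrocyte genes 3 were higher and 1 lower, and their part in these differences was not tested. Gadd45g, a stress and differentiation gene, was at 37.8 against 2.16 CPM, log2 ratio 4.13, 2.51 to 6.45, and Tfap2c, an AP-2 factor of basal progenitors, at 32.9 against 2.16 CPM, log2 ratio 3.93, 2.29 to 6.26. Of 28 synaptic genes 2 were higher and 3 lower (-0.55), and of 15 ion channel genes 0 were higher and 4 lower (-0.71). The 3 compared microglial genes were lower, and 1 member, described next, held most microglial UMIs.

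**Figure D5:**
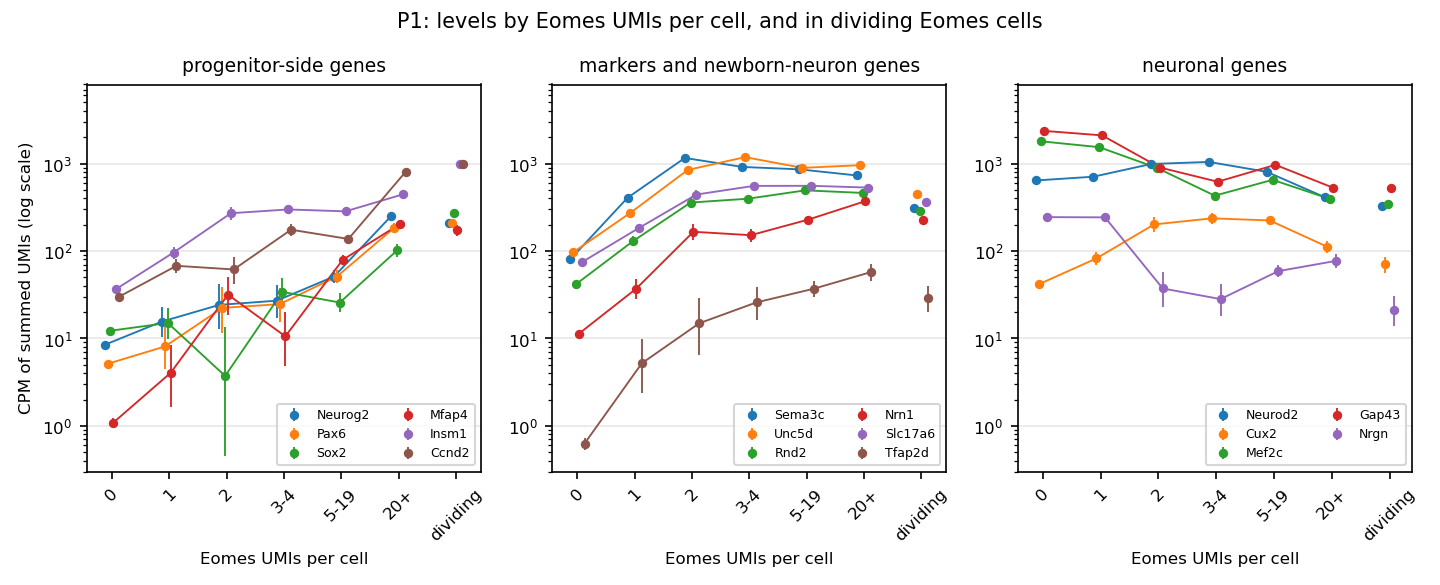
CPM on a log axis at P1 of 17 genes in cells grouped by Eomes UMIs (0, 1, 2, 3 to 4, 5 to 19, 20 or more) and in dividing Eomes cells, in 3 panels of progenitor and neurogenic genes, genes of young neurons, and genes of older neurons. Neurog2 and Pax6 climb towards the groups with more Eomes, while Neurod2, a gene of the rule, is lowest at 20 or more UMIs and in dividing cells.

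Markers of other cells that could carry Eomes or enter the sample were counted in the members. Tbx21 and Cdhr1 of olfactory mitral and tufted cells, which also express Eomes, summed to 2.04 CPM in P1 members and 2.40 in Eomes-negative cells, with 269 of 277 members at 0. The 6 Cajal-Retzius genes summed to 125 against 126 CPM, with Lhx1 at 0, although Calb2 among them was at 98.9 against 11.9 CPM, log2 ratio 3.06, and Reln at 22.7 against 85.5 CPM, log2 ratio -1.91. Interneuron genes summed to 74.9 against 46.0 CPM, astrocyte genes to 184 against 132, oligodendrocyte precursor genes to 48.3 against 50.6, and subplate (layer 6b) genes to 62.6 against 29.5, nearly all Nxph4 at 62.1 against 15.6 CPM. Endothelial genes summed to 5.58 against 42.4 CPM, mural genes to 4.09 against 40.9 and erythroid genes to 12.6 against 178. Microglial genes summed to 40.0 against 22.6 CPM, but 1 member held 186 of the 215 UMIs and 258 members held none. The other lists were also uneven. With at least 10 UMIs each, 20 members held 446 of the 674 Cajal-Retzius UMIs and 171 held none, 6 members held 236 of the 403 interneuron UMIs and 198 held none, 3 held 213 of the 260 oligodendrocyte precursor UMIs and 244 held none, and 25 held 496 of the 989 astrocyte UMIs and 89 held none. Without the member high in microglial UMIs 612 genes were higher (6.39%) and 697 lower (7.27%) than in Eomes-negative cells.

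At P4 the 15 members held a median of 2 Eomes UMIs (highest 18), and 8 of them sat at the limit of 2. Sema3c was found in 9 members, Unc5d in 11, Rnd2 in 13 and Insm1 in 10. All 3 markers were found in 8 members (53.3%, 26.6 to 78.7), against 622 of 13242 Eomes-negative cells (4.70%), and none in 2, so that the P4 set was uneven. Of these 2 cells without a marker, 1 held 10 Insm1 and 10 Sox2 UMIs. The cell with the most Eomes, 18 UMIs in 4708, held 10 Sema3c and 6 Pax6 UMIs. A second with 12 Eomes UMIs held 9 of Neurog2, 12 of Insm1 and none of Sema3c. Another pair carried 245 and 171 Reln UMIs with 2 and 3 of Trp73 and 2 and 4 of Lhx1, which are Cajal-Retzius genes. This pair held 572 of the 576 Cajal-Retzius UMIs of the P4 members, whose summed level was 4200 CPM against 161 in Eomes-negative cells. Its cells had 3 and 2 Eomes UMIs, 0 of Sema3c and 0 of Neurod6. No P4 member held a UMI of the 7 microglial genes, of Tbx21 or of Cdhr1. None held Gad1 or Gad2 either, but the rule had limited both, so nothing is read from that. All 17 UMIs of the mural genes lay in 1 P4 member, and all were of Rgs5, a pericyte gene.

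Summed over the 15 cells, 1218 of 9283 genes (13.1%) were at least 2-fold higher and 894 (9.63%) lower than in P4 Eomes-negative cells, with a median of 0.09, but with TMM factors 878 were higher and 1226 lower. Leaving out the Reln-high pair gave 1264 higher (13.7%) and 902 lower (9.79%). With a limit of 1 Eomes UMI both counts were smaller, and with 3 the higher count was larger, as listed further on. Sema3c was at 372 against 63.2 CPM, log2 ratio 2.56, Unc5d at 182 against 38.1 CPM, log2 ratio 2.26, and Rnd2 at 219 against 37.4 CPM, log2 ratio 2.55. Over the alternatives tried these ratios ran from 1.66 to 3.40 for Sema3c, 1.41 to 2.85 for Unc5d and 1.86 to 3.40 for Rnd2. Neurog2 was at 102 against 1.12 CPM, log2 ratio 6.51, and rested on 3 cells, and Insm1, at 269.8 CPM in members, had a log2 ratio of 3.91 (3.40 to 4.37). Of 11 upper-layer genes 8 were higher and 0 lower, of 9 deep-layer genes 0 and 4, and of 29 synaptic genes 1 and 8. The deepest cells weigh most in these sums and list counts. The 3 deepest P4 members held 34877, 22295 and 21354 UMIs, against a median of 5218. The one with 21354 UMIs held no Sema3c, Unc5d or Rnd2.

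Between ages, 1430 of 9537 genes were at least 2-fold higher in P4 than in P1 members (15%) and 1637 lower (17.2%). With TMM factors 1166 were higher and 1943 lower, while after thinning the higher genes outnumbered the lower, so this balance is not read. The P4 members held 137141 UMIs in all, so that a gene at 10 CPM had about 1 UMI there, and the P1 members 5380204. In Eomes-negative cells, which held 192938566 UMIs at P4 and 241728440 at P1, 311 (3.31%) and 679 (7.23%) of 9395 genes were called, and the shares cannot be compared at such unequal depths. Age, library, pipeline version, beads, mice and the share of cells with Y-linked UMIs changed together between P1 and P4 and cannot be told apart. Eomes was at 539.6 against 788 CPM, Sema3c at 372 against 862 CPM, log2 ratio -1.21, and Unc5d at 182 against 950.1 CPM, log2 ratio -2.38, with P4 first. In Eomes-negative cells Sema3c was at 63.2 against 80.0 CPM and Unc5d at 38.1 against 96.4 CPM. The genes with the lowest P4 to P1 ratio once divided by that in Eomes-negative cells were Pdzrn3, at 7.29 against 39.8 CPM, Spg21, Nfya, Sema6d, at 14.6 against 181 CPM, and Igsf21, each with 1 or 2 UMIs at P4. The log2 ratio was -2.45 (-7.76 to 0.05) for Pdzrn3 and -3.64 (-6.68 to -1.78) for Sema6d. At the other end, Gtsf2, Gm26551 and Gm26561 had 0 UMIs in P4 members and 1 to 3 in all P4 Eomes-negative cells together, against 5567 to 9433 in the P1 Eomes-negative cells, and nothing is read from them. Gm21972 and Gm20388 completed these 5, but they have no row in the P4 table used here, were taken as 0 there and are not measured zeros. Of the 9537 genes compared 3 had a row in 1 of the 2 tables, of which 2 were among the 1637 lower.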

How the data were processed

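The authors made the deposited tables of raw UMI counts per cell and gene with the BD Rhapsody pipeline, version 1.11 for P1 and 1.8 for the other ages per the file headers, on GRCm38 (mm10) with GENCODE vM19 genes. The P1 header calls its library P0 and keeps intronic reads. Groups followed the age in the labels. UMIs were summed over the cells of a group and scaled to CPM over all genes except mitochondrial and ribosomal protein genes, and a gene with 0 UMIs was set at a floor of 3 UMIs, which gives a bound. A bound that crossed a log2 ratio of 0 gives no direction and was set to 0. The calculation of ratios was checked only on simulated Poisson counts, the model that the intervals assume, and unevenness between cells was left out. Levels have exact Poisson intervals and ratios intervals conditional on the summed UMIs, both at 95%. Cells share 2 mice per library, so these intervals say nothing about mice. Scrublet (scanpy 1.11.5, expected rate 0.06) marked doublets, which were kept. Thinning drew 5000 UMIs per cell. Work was done in Python 3.11.15 with numpy 2.4.6 and scipy 1.17.1. Positions came from GENCODE vM21 on the same build.

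The members, the markers and the gene lists were chosen with earlier results of these data known. Genes named beyond the rule and the lists were the 10 highest and 10 lowest by the smaller of the P1 and P4 ratios, the 5 at each end against Cux2 cells and dividing Eomes cells by the same rule, and the 5 at each end of the age ratio. Leading genes at P1 alone, the division by Eomes count, the cut at 30000 UMIs and the left-out Reln-high and microglial members were added after values were seen. Cell barcodes were shared by P1 and P4 in 14 cases, none a member, and by P4 and P10 in 357, with 1 P4 member among them.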

Additional observations from a re-analysis of the deposited data

Results flagged for a closer look

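The P10 library, which is no part of the comparisons, held 11 cells that met the rule among 15272 (0.0720%, 0.0360 to 0.129). Of the P10 cells that passed the other limits this was 0.122% (0.0611 to 0.219), against 2 of 1906 Gad cells with 2 or more Eomes UMIs (0.105%, 0.0127 to 0.379). The 11 cells stood out because the rule was written for P1 and P4, and their share lay within the interval of the Gad cells. Their median depth was 5797 UMIs, against 22500 in P10 Eomes-negative cells.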

How the results depend on the processing

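No paired analysis was possible because each age is 1 library and all carry the same replicate number, and for the same reason no library could be left out. Of 156 counts and shares under alternatives 108 stayed within 1.5 times or the counting interval, and the others follow, for which the cause was not tested except where given. Of all cells that passed the quality limits members were 2.40% at P1 and 0.0789% at P4. With 1 Eomes UMI this share was 2.97% at P1 and 0.189% at P4, with 3 UMIs 0.0368% at P4, and after thinning 1.60% and 0.0299%. Against Eomes-negative cells with 1 Eomes UMI, 348 genes were lower at P1, and at P4 376 were higher and 235 lower. At P4, 2218 genes were higher with 3 Eomes UMIs, 1834 with 1 per 10000 and 2277 after thinning, and 1568 were lower by the mean of per-cell CPM. Without Scrublet-marked cells 1051 genes were lower at P1. Without a filter on low genes 3163 were higher and 2028 lower at P1 and 2032 higher at P4. With a mean CPM of 50, which leaves fewer genes, these were 274, 275 and 318, and 183 lower at P4. In P1 cells of 30000 UMIs or more 297 were higher and 99 lower. Against Cux2 cells, 3625 genes were higher and 1357 lower without the filter, 255 and 205 at a mean CPM of 50, and 374 and 83 in the deep cells. Of the lower genes there were 210 with 1 Eomes UMI, 852 without marked cells, 698 after thinning and 818 in cells with Xist alone. Against dividing cells, 806 genes were higher without marked cells, 981 after thinning, 1090 without the filter and 172 at a mean CPM of 50. There were 996 in cells with Xist alone, 1324 in cells with Y-linked UMIs alone, 815 under and 993 from 30000 UMIs. Lower ones numbered 2814 without the filter, 299 at a mean CPM of 50 and 1511 in cells with Y-linked UMIs alone. Between ages 2442 were higher and 1006 lower after thinning, 2194 higher without the filter, and 550 higher and 596 lower at a mean CPM of 50. TMM factors shifted the log2 ratios against Eomes-negative cells by 0.10 at P1 and 0.18 at P4. Of 552 log2 ratios of 23 named genes under alternatives, 373 moved by less than the counting interval, 178 moved by more and 1 changed sign, that of Kcnk1 at P4 with 1 Eomes UMI, at 0.0024. They were under 2-fold in 5 of 322 values at P1 and 25 of 230 at P4. The P4 count includes values set to 0 because their bound gave no direction.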

Other observations

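The rule left out 102 of the 379 P1 cells with 2 or more Eomes UMIs. Of these 47 (12.4%, 9.26 to 16.1) were dividing, 47 were over the Gad limit and 8 (2.11%, 0.916 to 4.12) held no Neurod2 or Neurod6. At P4 the rule left out 21 of 36, of which 10 were dividing and 11 over the Gad limit. Nxph4, a neurexophilin gene known from subplate neurons, was found in 140 of the 277 P1 members (50.5%) and Calb2 in 66 (23.8%, with up to 46 UMIs in a cell). Both genes were picked from their lists. The other subplate genes, Ctgf and Cplx3, were together lower in P1 members than in Eomes-negative cells. Reln of the Cajal-Retzius list was lower as well. The shares of Eomes-negative cells with Nxph4 or Calb2 are not given here, so no subplate or Cajal-Retzius trait is read from them.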
